A study of Mus musculus with 6 samples.

Results

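Maps of chromatin at the nuclear lamina after RNAi against lamin A and after RNAi against lamin B1 were set side by side in mouse embryonic fibroblasts, the connective tissue cells that grow out of dissociated embryos. The comparison used 4 of the 6 libraries of the series, chosen by their labelled RNAi target, and chromosomes 1 to 19. The cells were C57BL/6 and wild type in genotype by their labels. One population received lentiviral shRNA against LmnA and was mapped with Dam-LmnB1. The other received shRNA against LmnB1, by its description label, and was mapped with Dam-LmnA, by its title. The protocol text names neither of these, only shRNA against LmnA or LmnC and Dam-Lamin B1. Each map also had a Dam-only library from cells with the same shRNA. All cells were selected with puromycin at 2 ug/mL and were transduced again to express Dam or the fusion. Target and fusion changed together, there was 1 map per side and RNA and protein were not measured. The effect of the target therefore cannot be told apart from that of the fusion, the depletion could not be checked, and no test across replicates was possible. Cells without an shRNA were not analysed here.

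The nuclear lamina is a mesh of lamin filaments under the inner nuclear membrane. Lamin A is a splice product of the Lmna gene, and A-type lamins are found both at the membrane and in the nuclear interior, whereas lamin B1, from Lmnb1, stays anchored to the membrane through its lipid tail. Stretches of chromosome that touch the lamina, called lamina-associated domains (LADs), are mostly gene-poor, late-replicating and silent. In DamID a lamin carries the bacterial adenine methyltransferase Dam, which marks GATC sites near the lamina, and the fragments between methylated sites are amplified and sequenced. Dam alone gives the background of accessible chromatin.

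The deposited value of each GATC fragment is a log2 ratio of fusion over Dam-only reads, so values above 0 mean more fusion signal. The 2 maps held the same fragments, matched by chromosome, start and end. There were 5972542 on the autosomes, tiling 2394 Mb with a median length of 260 bp. Fragment-free stretches of at least 10 kb (135, together 21.6 Mb) were left out throughout. Library totals are not known from ratios. A fragment without reads in 1 library has an extreme value, more than 12 log2 units from the constant of its map, because the deposited ratio had 1e-05 added to both counts. After LmnA RNAi, 16.8% of fragments had reads from the fusion library only and 8.34% from the Dam-only library only. After LmnB1 RNAi these shares were 14.0% and 10.3%. Such single-library fragments weigh heavily in any mean, so means are also given without them. Another 29.4% of fragments after LmnA RNAi and 29.7% after LmnB1 RNAi lay exactly at the constant, and 45.4% and 46.0% were read in both libraries. Fragments at the constant made up 10.0% and 10.6% of fragment length and were kept in the means without single-library fragments.

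LADs covered more of every autosome after LmnA RNAi than after LmnB1 RNAi. They held 66.8% of the tiled autosomal sequence after LmnA RNAi and 58.6% after LmnB1 RNAi, a difference of 8.25 percentage points. Over the 19 autosomes the difference had a mean of 8.28 points (SD 1.83). The smallest differences were on chromosome 7 (5.20 points, 65.1% against 59.9%) and chromosome 5 (5.81 points). The largest were on chromosome 12 (11.2 points, 73.6% against 62.5%) and chromosome 13 (12.6 points, 68.4% against 55.8%). The order of chromosomes was similar in both maps (Pearson r = 0.929 and Spearman rho = 0.842 over 19 chromosomes, which share the 4 libraries). Gene-dense chromosome 11 was lowest in each, at 53.2% and 46.4%. The size of the difference had no clear course with the LAD share of the LmnB1 RNAi map (r = 0.06). Taken over sequence outside LmnB1 RNAi LADs, the part in LmnA RNAi LADs was larger where that share was larger (r = 0.51, rho = 0.42). The share also sets the denominator of this part. These chromosomes are parts of 1 pair of maps, so their spread is not a replicate error. The map with the larger LAD share was also the one whose single-library fragments leaned more to the fusion library, and the part of that lean in the difference was not tested.

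**Figure D1:**
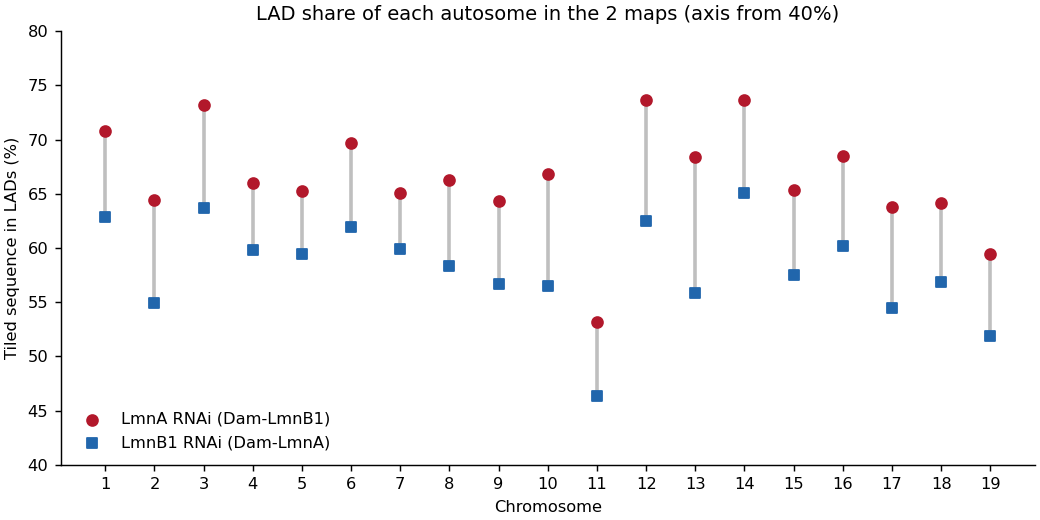
Share of tiled sequence in LADs (percent, axis from 40%) on each autosome, with circles for the LmnA RNAi map, squares for the LmnB1 RNAi map and a grey line joining them. The circle lies above the square on each of the 19 chromosomes, by 5.20 points on chromosome 7 and 12.6 points on chromosome 13.

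Most LAD sequence was common to both lists, and the sequence that differed lay nearly all on the LmnA RNAi side. The lists shared 1365 Mb, equal to 85.3% of LAD sequence after LmnA RNAi and to 97.3% of it after LmnB1 RNAi. LADs of the LmnA RNAi map alone held 235 Mb and those of the LmnB1 RNAi map alone 37.3 Mb. A further 756 Mb lay in LADs of neither. The Jaccard index, the length in both lists over the length in either, was 0.834 (SD 0.0262 over 19 chromosomes). It was lowest on chromosome 13 (0.760) and highest on chromosome 7 (0.874).

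Left-out stretches changed the order of this pair and the LmnA and LmnC RNAi pair. LADs as deposited contained 19.6 Mb of left-out sequence after LmnA RNAi and 18.9 Mb after LmnC RNAi, but 0.189 Mb after LmnB1 RNAi. With these stretches removed the LmnA and LmnB1 RNAi lists had a higher index than the LmnA and LmnC RNAi lists, which share the Dam-LmnB1 fusion (0.834 against 0.825). With the lists as deposited the order turned (0.824 against 0.826). Both gaps are smaller than the SD of either index over chromosomes. The indices share chromosomes and the LmnA RNAi list, and the spread of the gap itself was not computed. The LmnC and LmnB1 RNAi lists had the highest index either way (0.875 removed and 0.864 as deposited).

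The top-signal bins of the maps overlapped largely. When the 14031 of 23944 bins of 100 kb with the highest signal were taken from each map, matching the LAD share of the LmnB1 RNAi map, 94.8% of them were the same bins (Jaccard index 0.901). At the share of the LmnA RNAi map, 16006 bins, 95.4% were the same (0.913). These sets hold 58.6% and 66.8% of all bins, so part of the overlap follows from their size. Unrelated sets of these sizes would have 58.6% and 66.8% of their bins in common on average. This measure was added after the data were seen. Short domains showed where each list placed its limit. LADs of 100 to 200 kb had a median log2 ratio of 1.02 after LmnA RNAi (318 LADs) and 0.86 after LmnB1 RNAi (301), with 13.2% and 11.3% of them below 0. Inter-LADs of that length, the stretches between LADs, had medians of -1.41 and -1.43, with 96.4% and 97.3% below 0. In both maps the limit between LAD and inter-LAD therefore lay close to a deposited ratio of 0.

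With left-out stretches removed there were 1782 LADs after LmnA RNAi and 1652 after LmnB1 RNAi. Their median lengths were nearly equal, at 490 kb (interquartile range 242 to 1083 kb) and 494 kb (245 to 993 kb). Long LADs were more numerous after LmnA RNAi, with 488 against 408 of at least 1 Mb and 25 against 15 of at least 5 Mb. LADs of at least 1 Mb held 68.1% of LAD sequence after LmnA RNAi and 63.4% after LmnB1 RNAi. Inter-LADs were correspondingly shorter after LmnA RNAi, with a median of 203 kb against 276 kb, and 204 against 282 of them reached 1 Mb.

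LADs matched one to one, sharing at least 1 bp with a single partner that had no other, numbered 962 pairs. Of the LmnA RNAi LADs, 324 (18.2%) had no partner and 254 (14.3%) spanned several LmnB1 RNAi LADs. Of the LmnB1 RNAi LADs, 41 (2.48%) had no partner and 141 (8.54%) spanned several LmnA RNAi LADs. Domains were thus joined in both directions.

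Missing partners were most frequent among short LADs. Among LmnA RNAi LADs of 100 to 200 kb, 156 of 318 (49.1%) had no LmnB1 RNAi partner. The count was 103 of 412 for LADs of 200 to 400 kb, and the share was 7.59% of 540 LADs of 400 to 1000 kb and 1.02% of 488 longer LADs. Among LmnB1 RNAi LADs, 32 of 301 (10.6%) of 100 to 200 kb and 9 of 385 (2.34%) of 200 to 400 kb had no partner, and each of the 554 LADs of 400 to 1000 kb and 408 longer ones had one. A longer LAD meets a partner more easily, since 1 shared bp is enough. Short LADs also have fewer fragments, and their calls rest on fewer reads. The part of either in the missing partners was not tested. The 24 LmnA RNAi pieces under 100 kb come from LADs cut at left-out stretches, and 19 of them had no partner.

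**Figure D2:**
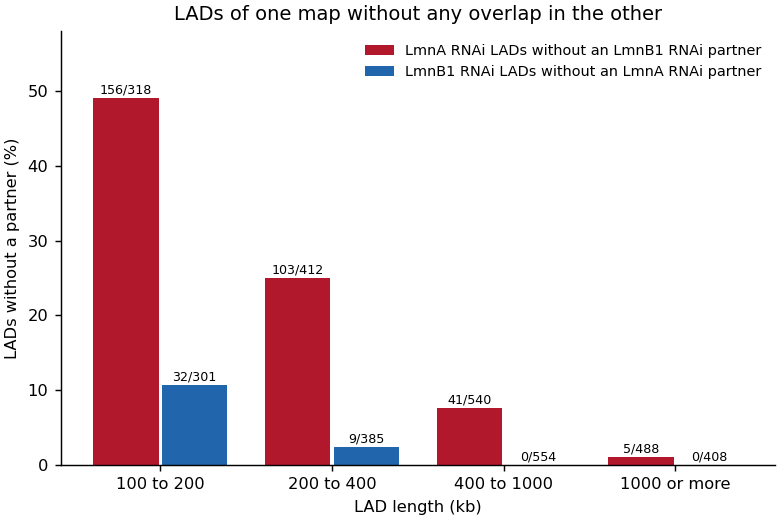
Percent of LADs of one map that share no base with a LAD of the other, by LAD length in kb, with the counts above each bar. Among the lengths drawn, all of 100 kb or more, the share is highest for LmnA RNAi LADs of 100 to 200 kb (156 of 318) and is 0 for LmnB1 RNAi LADs of 400 kb or more.

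The most LmnB1 RNAi LADs spanned by a LmnA RNAi LAD was 5, in 3 LADs. The longest of them lay on chromosome 16 from 59640858 to 65254825 in mm9 (5.61 Mb), and LmnB1 RNAi LADs covered 82.5% of it. The others lay on chromosome 16 from 74652750 to 78189916 (72.5% covered) and on chromosome 6 from 57776604 to 61115149 (88.6% covered). The first had a mean log2 ratio of 1.81 ± 0.05 after LmnA RNAi and 1.38 ± 0.05 after LmnB1 RNAi, where ± is the SE over its 13622 fragments in each map. Errors of this kind describe fragments of 1 pair of libraries and not replicate maps. A single LmnB1 RNAi LAD on the same chromosome, from 65872980 to 70307668 (4.43 Mb), spanned 4 LmnA RNAi LADs, which covered 94.9% of it. Its ratio was 1.89 ± 0.06 after LmnA RNAi and 2.09 ± 0.05 after LmnB1 RNAi. Another 2 LmnB1 RNAi LADs also spanned 4, and there the LmnA RNAi ratio was the higher. They lay on chromosome 11 from 8785772 to 11690838 (2.36 ± 0.06 against 1.76 ± 0.06) and on chromosome 1 from 13370013 to 16079290 (2.11 ± 0.06 against 1.11 ± 0.05).

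Stretches of at least 100 kb in LADs of one map and outside those of the other were used to describe where the lists parted. LADs of the LmnA RNAi map alone held 754 such stretches (196 Mb) with a median of 193 kb. Of these, 305 were whole LADs without LmnB1 RNAi LAD sequence (82.4 Mb), 318 lay at the edge of a common LAD (80.5 Mb) and 131 bridged LmnB1 RNAi LADs (33.2 Mb). LADs of the LmnB1 RNAi map alone held 99 (15.5 Mb) with a median of 136 kb, made up of 41 whole LADs, 33 edges and 25 bridges. On the LmnA RNAi side 67 stretches reached 500 kb and 9 reached 1 Mb, whereas the longest on the LmnB1 RNAi side was 448 kb.

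Each autosome had stretches of both directions. Those of the LmnA RNAi map ran from 22.3 per 100 Mb on chromosome 5 to 45.5 on chromosome 13. Those of the LmnB1 RNAi map ran from 1.37 on chromosome 6 to 7.37 on chromosome 16.

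**Figure D3:**
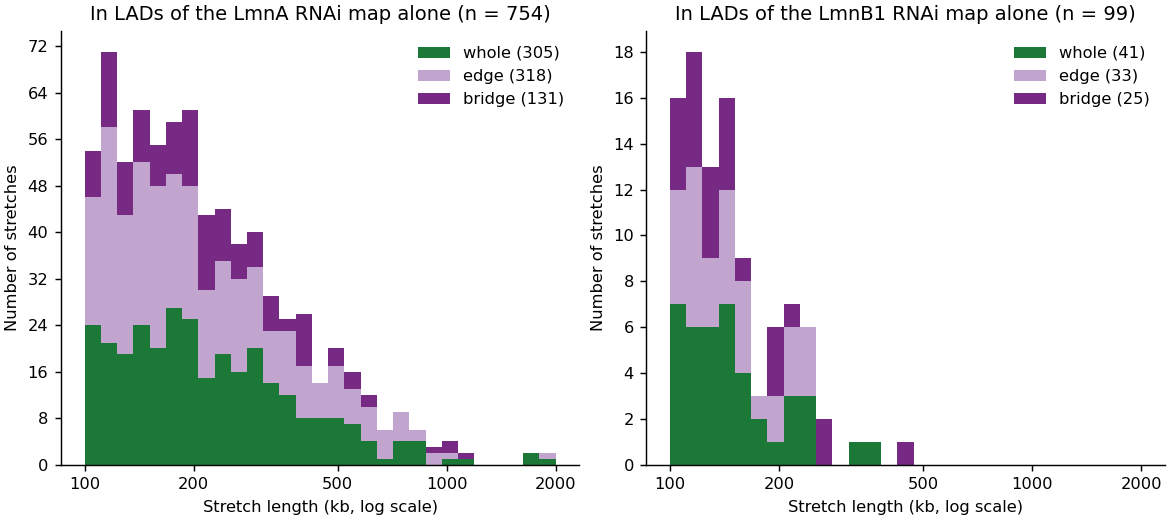
Lengths (kb, log scale) of stretches of 100 kb or more in LADs found after LmnA RNAi alone (left, n = 754) and of the LmnB1 RNAi map alone (right, n = 99), stacked by kind. The 2 vertical axes differ, and only the left panel holds stretches over 500 kb.

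Whole LmnA RNAi LADs without a partner were mostly set apart from LmnB1 RNAi LADs. Their median distance to the nearest one was 260 kb, with 67 within 100 kb and 87 more than 500 kb away. Of 1504 LmnB1 RNAi inter-LADs between neighbouring LADs, 209 held such an island. Among 253 LmnB1 RNAi inter-LADs of at least 1 Mb, 130 (51.4%) held such an island and 2 were wholly covered. Islands were also held by 54 of 225 inter-LADs of 500 to 1000 kb and 24 of 426 of 200 to 500 kb. A longer inter-LAD has more room for an island and for distance from a LAD, and the part of this was not tested. Inter-LADs under 100 kb are too short to hold one, and 184 of 346 (53.2%) were wholly covered. LADs of the LmnA RNAi map covered 17.7% of the length of inter-LADs of at least 1 Mb and 58.7% of that of inter-LADs under 100 kb.

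The chosen stretches had to differ in their calls, so their signal in both maps is a description. Over the 754 LmnA RNAi stretches the median was 0.40 after LmnA RNAi and -0.64 after LmnB1 RNAi, and it was higher after LmnA RNAi in 746. Without single-library fragments the medians were -0.12 and -0.43, and 693 were higher after LmnA RNAi. Over the 99 LmnB1 RNAi stretches the medians were -0.22 after LmnA RNAi and -0.02 after LmnB1 RNAi. The difference within a stretch had a median of -0.18, and its SE for a single stretch had a median of 0.35. Of the 99, 36 had a higher deposited ratio after LmnA RNAi, and 44 without single-library fragments. Over all bins of 100 kb the LmnA RNAi ratio was higher by a median of 0.47, with a lower quartile of 0.01. Most bins were thus higher after LmnA RNAi, which is the background for the counts of both sides.

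The longest LmnA RNAi stretch was a whole LAD at positions 99544129 to 101450517 of chromosome 14 (1.91 Mb). It had 0.33 ± 0.07 after LmnA RNAi and -0.35 ± 0.06 after LmnB1 RNAi, over 4556 fragments. LADs of the LmnC RNAi map covered none of it. The next was the edge of a common LAD on chromosome 3 from 38798830 to 40655231 (1.86 Mb), with 0.26 ± 0.07 against -0.42 ± 0.07, and it too lay outside LmnC RNAi LADs.

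A whole LAD at positions 54015445 to 55790058 of chromosome 12 (1.77 Mb) showed the widest difference among the longest 8, with 0.47 ± 0.07 after LmnA RNAi and -1.16 ± 0.07 after LmnB1 RNAi. The nearest LmnB1 RNAi LAD was 1176 kb away. On chromosome 3, positions 146530492 to 148282824 (1.75 Mb), another whole LAD had 0.97 ± 0.07 and -0.27 ± 0.07. On chromosome 4 from 80607379 to 81796830 (1.19 Mb) a further one had 0.28 ± 0.09 and -0.69 ± 0.09. In these whole LADs the ratio lay above 0 in one map and below it in the other.

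Near the end of chromosome 6, a bridge from 148137624 to 149282088 (1.14 Mb) had the highest LmnA RNAi signal of the 8, at 1.26 ± 0.09 against -0.15 ± 0.08 after LmnB1 RNAi. It was the only one of the 8 mostly in LADs after LmnC RNAi (93.4%). A whole LAD at positions 84765765 to 85840772 of chromosome 3 (1.08 Mb) had 0.51 ± 0.09 and -0.95 ± 0.09. The edge stretch on chromosome 17 from 8021536 to 9077853 (1.06 Mb) had -0.02 ± 0.09 and -1.04 ± 0.09. Across the 8, the LmnA RNAi ratio was above 0 in 7 and the LmnB1 RNAi ratio in 0, with differences of 0.68 to 1.63 (SE 0.09 to 0.13). Without single-library fragments the LmnA RNAi ratio was above 0 in 2 of the 8, and the differences ran from 0.22 to 0.54.

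The longest LmnB1 RNAi stretches were shorter and closer in signal. A bridge on chromosome 14 from 103051196 to 103499615 (448 kb) had -0.07 ± 0.15 after LmnA RNAi and 0.06 ± 0.13 after LmnB1 RNAi. A whole LAD at positions 13534240 to 13881398 of chromosome 5 (347 kb) had 0.19 ± 0.17 and -0.12 ± 0.14, so the list with the LAD was that of the lower ratio. A whole LAD at positions 110840173 to 111163491 of chromosome 13 (323 kb) had -0.22 ± 0.17 and 0.27 ± 0.15, and all of it was also in LADs after LmnC RNAi. For 3 of the 5 longest the difference was within 2 SE.

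The other two were bridges. One on chromosome 3 from 114727176 to 115002617 (275 kb) had -0.06 ± 0.18 and -0.12 ± 0.16. One on chromosome 5 from 141712516 to 141978026 (266 kb) had -0.71 ± 0.17 after LmnA RNAi and 0.21 ± 0.15 after LmnB1 RNAi. The latter showed the clearest excess after LmnB1 RNAi of the 5, and it remained without single-library fragments (-0.71 ± 0.07 against -0.06 ± 0.06). LADs of the LmnC RNAi map did not reach it.

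**Figure D4:**
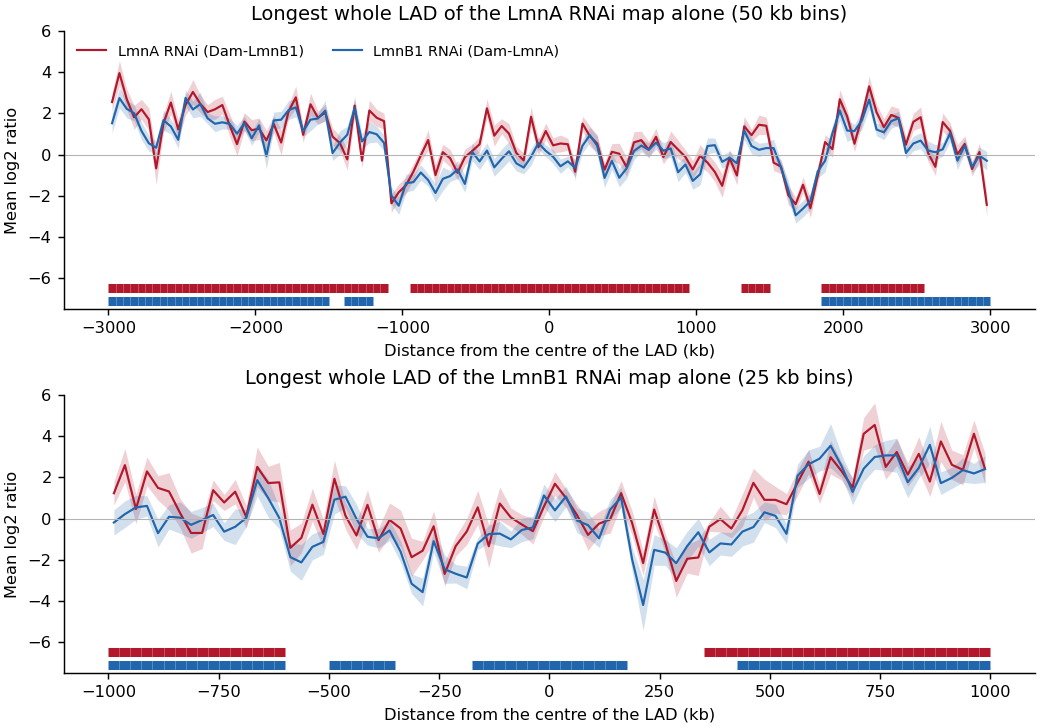
Mean log2 ratio of the 2 maps (lines, shading ± SE over fragments) against distance in kb from the centre of the longest whole LAD found after LmnA RNAi alone (top) and after LmnB1 RNAi alone (bottom), with bars below for bins mostly in LADs of each map. Over the LAD in the top panel both lines cross 0 repeatedly, with means of 0.33 after LmnA RNAi and -0.35 after LmnB1 RNAi, and in the bottom panel the lines cross each other repeatedly.

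Where only the LmnA RNAi list had a LAD, the mean LmnB1 RNAi ratio was below 0 but higher than in LADs of neither map. The calls themselves did not fix this difference. Outside LmnB1 RNAi LADs, the mean LmnB1 RNAi ratio was -0.71 ± 0.01 where the LmnA RNAi map had a LAD and -2.14 ± 0.01 where it had none (SE over fragments). The first lay above the second on 19 of 19 chromosomes, by a mean of 1.42 (SD 0.08). Without single-library fragments the means were -0.44 and -1.13. The reverse held as well. Outside LmnA RNAi LADs, the LmnA RNAi ratio was -0.46 ± 0.02 in LADs of the LmnB1 RNAi map and -2.03 ± 0.01 in LADs of neither, also higher on 19 of 19 chromosomes, by 1.55 (SD 0.21). Sequence called in one map was thus of intermediate signal in the other, between sequence in LADs of both (2.22 after LmnA RNAi and 1.67 after LmnB1 RNAi) and sequence in LADs of neither.

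The same was seen locally. Each whole LAD of one map was set against the sequence within 100 kb of it that lay in LADs of neither map. Of the 303 whole LmnA RNAi LADs with at least 50 kb of such flank, 302 had a higher LmnB1 RNAi ratio than their flanks, by a median of 1.53, where the LmnA RNAi ratio was higher by 2.34. Without single-library fragments these medians were 0.74 and 1.04, and 303 of 303 were higher in each map. All 41 whole LmnB1 RNAi LADs had a higher LmnA RNAi ratio than their flanks, by a median of 1.52, where the LmnB1 RNAi ratio was higher by 2.17. In each case the excess in the map that called the LAD was one its calls helped to fix. Only the excess in the other map was free of that choice.

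The LmnC RNAi map, from 2 other libraries, took no part in choosing these stretches. Its LADs covered 93.9% of the sequence in LADs of both maps and 2.27% of that in LADs of neither. Sequence in LADs found after LmnA RNAi alone was 27.9% in LmnC RNAi LADs (17.9% on chromosome 13 to 39.5% on chromosome 7). Sequence in LADs of the LmnB1 RNAi map alone was 45.2% in them (27.0% on chromosome 8 to 72.5% on chromosome 17). By length, 169 Mb of the former lay outside LmnC RNAi LADs and 65.5 Mb inside. Among the 305 whole LmnA RNAi stretches, 216 (70.8%) had no LmnC RNAi LAD sequence and 72 were at least 50% covered. Among the 131 bridges these counts were 24 and 47. The LmnC RNAi ratio was still of intermediate size at these places. Its mean was -1.18 in LADs found after LmnA RNAi alone and -0.99 in LADs of the LmnB1 RNAi map alone. In LADs of neither it was -3.07, lower than each of these on 19 of 19 chromosomes, and in LADs of both 1.38. All 303 whole LmnA RNAi LADs with flanks had a higher LmnC RNAi ratio than their flanks, by a median of 1.84.

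Many borders of the maps lay close together, but others lay far apart or had no partner. Of the 3564 LmnA RNAi borders, 2392 (67.1%) had an LmnB1 RNAi border of the same side within 250 kb. Borders at left-out stretches were not matched. The LmnA RNAi border lay further out by a median of 3.21 kb (interquartile range -6.27 to 31.5 kb). It was within 10 kb in 975 (40.8%), further out by more than 50 kb in 476 (19.9%) and further in by more than 50 kb in 161 (6.73%). Left and right borders behaved alike, with medians of 2.64 and 3.63 kb. So the greater LAD share after LmnA RNAi came with a long outward tail of border positions and a small typical shift.

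Signal was averaged over 448 borders that lay within 10 kb of each other, with at least 200 kb of LAD and inter-LAD on either side. Averaged over 100 to 200 kb from the LmnA RNAi border, the LmnA RNAi ratio went from -1.93 outside to 1.97 inside, a rise of 3.89. The LmnB1 RNAi ratio went from -2.10 to 1.31, a rise of 3.40. As deposited, the maps thus lay further apart inside LADs than outside them. Without single-library fragments the LmnA RNAi ratio was higher inside (0.77 against 0.43) and lower outside (-1.24 against -1.13). Between the first 10 kb outside and the first 10 kb inside, the LmnA RNAi ratio rose by 3.30 and the LmnB1 RNAi ratio by 1.94. Aligned on the LmnB1 RNAi border instead, these steps were 2.21 and 2.99. The sharper step belonged in each case to the map whose borders were used, so the maps could not be ranked by sharpness.

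**Figure D5:**
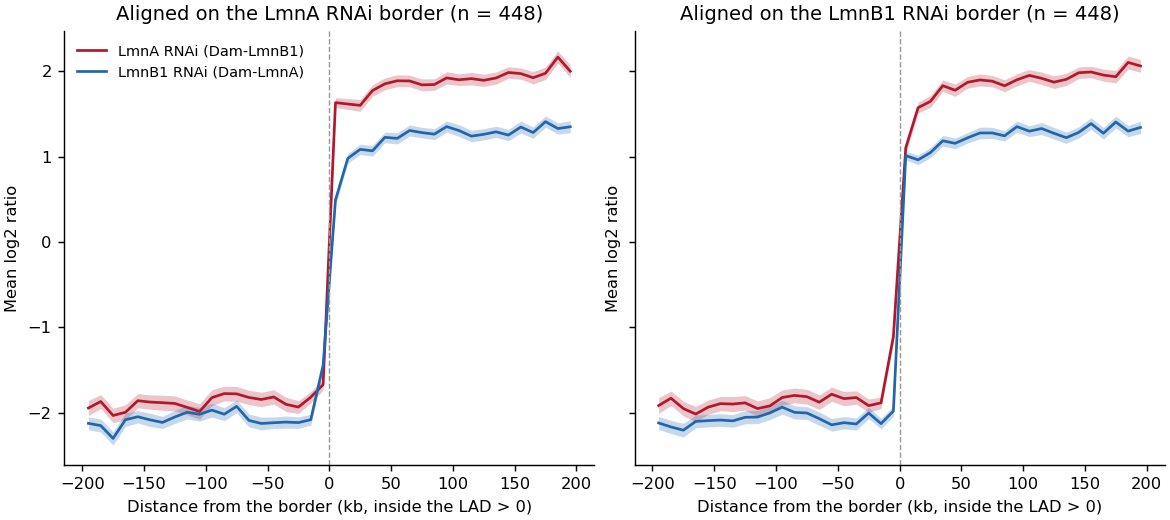
Mean log2 ratio (lines, shading ± SE over 448 borders) in 10 kb bins by distance from LAD borders common to both maps, in kb and positive inside the LAD, aligned on the LmnA RNAi border (left) or the LmnB1 RNAi border (right). Inside LADs the LmnA RNAi line runs above the LmnB1 RNAi line, and the steeper step changes with the border used.

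The contrast between LAD and inter-LAD sequence was larger after LmnA RNAi. The mean ratio in LADs of both maps minus that in LADs of neither was 4.23 after LmnA RNAi (SD 0.19 over 19 chromosomes) and 3.80 after LmnB1 RNAi (SD 0.11). It was larger after LmnA RNAi on 19 of 19 chromosomes, by 0.43 on average (SD 0.14). Over all autosomes and without single-library fragments, the contrasts were 2.19 and 1.74. In LADs of both maps, 22.5% of fragments were read in the fusion library alone after LmnA RNAi and 19.4% after LmnB1 RNAi. In LADs of neither, 16.3% and 19.4% were read in the Dam-only library alone.

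Signal was next compared over 23944 bins of 100 kb with fragments over at least 50% of their length. The LmnA RNAi ratio exceeded the LmnB1 RNAi ratio by a median of 0.47 (interquartile range 0.01 to 0.92), and by 0.36 to 0.60 in the medians of single chromosomes. The bins followed the same course in both maps (Pearson r = 0.945, Spearman rho = 0.930, over bins that share the 4 libraries). With a step of 0.5 on the deposited scale, the LmnA RNAi ratio led in 11649 bins (48.7%) and the LmnB1 RNAi ratio in 1973 (8.24%). This step is close to the median SE of a bin difference, 0.45. More than 2 SE separated the maps in 28.9% of bins, 27.0% with the LmnA RNAi ratio higher and 1.91% with the LmnB1 RNAi ratio higher.

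After each map was centred on its median the split turned, to 13.7% higher after LmnA RNAi and 33.4% higher after LmnB1 RNAi. Quantile normalization made it even, at 20.5% and 20.7%. Without single-library fragments it was 16.7% and 2.56%. Centring subtracts the medians of the maps (1.21 and 0.53), which lay further apart than the median bin difference, so centred differences lean the other way. Quantile normalization gives both maps the same set of bin values, which removes an excess of one map as a whole. After scaling, a bin is higher or lower only relative to the rest of its map. The constant of each map, which the deposited ratio carries for all fragments, was -0.34 after LmnA RNAi and -0.15 after LmnB1 RNAi. Subtracting it raised the median difference to 0.67.

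The difference depended on the LAD state of the bin. In 12304 bins at least 90% in LADs of both maps the median difference was 0.56. In 6452 bins at most 10% in LADs of either it was 0.07. In 1380 bins in LADs found after LmnA RNAi alone it was 1.05, and in 77 bins in LADs found after LmnB1 RNAi alone it was -0.11, values the calls helped to fix. In LADs of both, the LmnA RNAi ratio led by more than 0.5 in 54.0% of bins against 48.7% of all bins, and in LADs of neither in 26.1%. Without single-library fragments the median difference was 0.32 in LADs of both and -0.18 in LADs of neither, so the sign outside LADs turned.

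The bin with the largest excess after LmnA RNAi once maps were centred lay on chromosome 1 from 188300001 to 188400000, with 1.31 ± 0.35 against -2.35 ± 0.39. All of it was in a LAD of the LmnA RNAi map alone. On chromosome 18 from 58500001 to 58600000 the ratios were 0.95 ± 0.34 and -2.17 ± 0.33, yet neither map had a LAD there. The other three bins of the leading 5 were on chromosome 10 from 12200001 to 12300000 (1.02 ± 0.32 against -2.09 ± 0.32), chromosome 17 from 67600001 to 67700000 (0.75 ± 0.29 against -2.32 ± 0.26) and chromosome 3 from 28100001 to 28200000 (1.28 ± 0.30 against -1.73 ± 0.36). None of the 5 held LAD sequence of the LmnB1 or LmnC RNAi maps. Single-library fragments made up much of these differences. As deposited the 5 differences ran from 3.01 to 3.66, and without such fragments from 0.82 to 1.12. On chromosome 1 the ratios were then 0.02 and -0.86, and on chromosome 18 -0.11 and -0.93.

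In the other direction the leading 5 bins involved no change of LAD state. Those on chromosome 7 from 19900001 to 20000000 (-5.29 ± 0.57 after LmnA RNAi against -2.99 ± 0.42 after LmnB1 RNAi), on chromosome 10 from 127600001 to 127700000 (-4.52 ± 0.46 against -2.51 ± 0.34) and on chromosome 7 from 29400001 to 29500000 (-3.75 ± 0.43 against -1.88 ± 0.33) lay outside LADs in both maps. Those on chromosome 3 from 44100001 to 44200000 (0.69 ± 0.47 against 2.68 ± 0.33) and chromosome 2 from 99100001 to 99200000 (2.00 ± 0.48 against 3.86 ± 0.50) lay wholly inside them. The largest excesses after LmnB1 RNAi were thus deeper or shallower signal within one state. As deposited, LmnA RNAi minus LmnB1 RNAi ran from -2.30 to -1.86 in these 5 bins. Without single-library fragments it ran from -0.76 to -0.25.

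The density of GATC sites sets how many fragments a bin holds, and it moved with the LAD share in both maps. In the quintile of bins with the fewest fragments (median 219 per 100 kb) LADs held 57.0% of sequence after LmnA RNAi and 46.2% after LmnB1 RNAi. In the quintile with the most (median 288) they held 85.1% and 80.8%. The difference narrowed from 10.8 to 4.36 points over these quintiles. Taken over sequence outside LmnB1 RNAi LADs, the part in LmnA RNAi LADs was 23.6%, 23.6%, 21.9%, 23.1% and 29.4% from the poorest to the richest quintile. Along chromosomes, cut into 10 equal parts from the centromere, the difference ranged from 6.81 to 10.3 points with no steady course, while the LAD share itself fell from 76.6% to 59.7% after LmnA RNAi and from 68.0% to 50.9% after LmnB1 RNAi. Over sequence outside LmnB1 RNAi LADs, the share in LmnA RNAi LADs was uneven in the 5 parts nearest the centromere. From the centromere on it was 32.3%, 22.6%, 29.4%, 26.2% and 23.8%. In the 5 parts furthest from the centromere it was 19.9% to 21.8%.

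Single fragments overlapped in part between the maps. Of the fusion-only fragments of the LmnA RNAi map, 31.8% were fusion-only after LmnB1 RNAi, against 14.0% of all fragments. A further 11.2% of them were Dam-only there, against 10.3% of all. Of the Dam-only fragments of the LmnA RNAi map, 30.3% were Dam-only after LmnB1 RNAi. Many such fragments rested on a single read, namely 48.2% of fusion-only and 56.1% of Dam-only fragments after LmnA RNAi, and 53.0% and 52.0% after LmnB1 RNAi. The 2269690 fragments read in both libraries of both maps correlated with r = 0.682 and rho = 0.664 and were higher after LmnA RNAi by a median of 0.22. Single fragments are thus far noisier than the 100 kb means.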

How the data were processed

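DamID libraries of mouse embryonic fibroblasts were compared, 1 Dam-only and 1 fusion library per map. Reads were aligned with Bowtie to mm9, per the submitters' processing notes. How reads were filtered and LADs called is not stated in the labels. The signal was deposited as log2 ratios per GATC fragment, and LADs were deposited as lists of positions. From the steps of the values, each equals log2 of the fusion over the Dam-only read count, after adding 1e-05 to either, plus 1 constant per map. A value more than 12 from the constant was read as 0 reads in 1 library, and reads recovered from these were whole within 0.02 in 100% of values up to 100 reads.

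From these files, LAD lists were intersected after removing fragment-free stretches of at least 10 kb, and signal was averaged by fragment length with Python 3.11.15, NumPy 2.4.6 and pandas 2.3.3. Functions were tested on simulated data. Coordinates are in mm9 and counted from 1. Regions named were the 8 and 5 longest stretches in LADs of the LmnA and LmnB1 RNAi maps alone, the 5 bins with the largest centred difference each way, the LADs spanning most LADs of the other list each way, and the chromosomes at the extremes. The comparison and these rules were chosen with earlier results of these data known. No annotation of mm9 was used here, so genes in the regions are not named. With 1 map per side no p-value was computed.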

Additional observations from a re-analysis of the deposited data

How the results depend on the processing

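Of 52 alternative values for 12 results, 31 stayed within 1.5 times (counts and shares of bins) or within the SD over 19 chromosomes (other values) and 21 moved. The 2 shares of bins were scored separately. Their order turned when the maps were centred, and they were even after quantile normalization. Centring subtracts medians that lay further apart than the median bin difference, and quantile normalization gives both maps the same set of bin values. The LAD shares and their difference moved under none of the alternatives tried. These were gaps left in, each fragment counted once and chromosome X added. All of them reused the deposited LAD lists, so they cannot show how the shares depend on the LAD calls. The Jaccard index moved to 0.901 and 0.913 with equal numbers of bins per map. Stretches of the LmnA RNAi map alone numbered 357 at 200 kb or more, and those of the LmnB1 RNAi map alone 234 at 50 kb and 19 at 200 kb. The median bin difference was 0.19 without fragments read in 1 library only, 0.67 with the constants subtracted and 0.22 with fragment values held at 5 around the constant. Without single-library fragments the LAD contrasts were 2.19 and 1.74. Bins higher after LmnA RNAi were 16.7% without single-library fragments, 13.7% centred, 20.5% quantile normalized and 20.8% at a step of 1. Bins higher after LmnB1 RNAi were, in that order, 2.56%, 33.4%, 20.7% and 1.67%, and 4.50% in 250 kb bins, 1.25% in 1 Mb bins and 4.30% by the balance of fusion-only and Dam-only fragments. The cause of these moves was not tested. No paired analysis was possible because each group holds 1 library, and for the same reason no replicate could be left out. Depth cannot be read from ratios.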

Other observations

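The difference in LAD share was uneven along chromosomes. Over 466 windows of 5 Mb it had a median of 5.99 points (interquartile range 1.29 to 13.3). It exceeded 20 points in 48 windows and was below 0 in 62. The following windows were chosen after their values were seen. On chromosome 17 from 5000001 to 10000000 LADs held 61.5% after LmnA RNAi and 18.8% after LmnB1 RNAi, the widest difference. On chromosome 3 from 145000001 to 150000000 they held 66.7% and 24.9%, and on chromosome 4 from 80000001 to 85000000 73.6% and 36.0%. The widest difference the other way was on chromosome 5 from 10000001 to 15000000, at 81.3% and 88.4%. Only 3 windows were more than 5 points higher after LmnB1 RNAi.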
